A study of Larimichthys crocea with 3 samples.

Results

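The barcodes described here came from the adult differentiating testis of Larimichthys crocea, the large yellow croaker, which breeds by season. They were labelled RNA-rich spermatids and were chosen by their own UMI counts. A UMI (unique molecular identifier) stands for 1 captured RNA molecule, and a barcode for 1 droplet that should hold 1 cell. Barcodes with 3000 to 20000 UMIs were sorted by 5 summed counts. The tail sum held 11 genes of the sperm tail and of sperm-egg fusion (akap14, cfap52, dcst1, dcst2, drc1, izumo1, ropn1l, rsph1, spata4, tekt1 and tekt4). The replication sum held mcm2 to mcm7 and pcna, and the division sum held aurka, plk1, cenpe, cenpf, bub1 and tpx2. The early meiotic sum held dmc1, spo11, rec8 and msh4, and the later spermatocyte sum held ccna1, hsf5, tdrd9 and syce3. A barcode was taken when its tail sum was at least 3 UMIs and larger than each other sum. That gave 3295 of the 14800 barcodes of the library (22.3%, exact 95% interval 21.6% to 22.9%), of 37370 in all 3 libraries. They are called tail-gene-high barcodes below, because the data bear out the label only in part.

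The series compared juvenile, adult regressed and adult differentiating testis, with 1 library for each and no genotype or treatment given. Freshly dissected testes were cleared of blood and outer capsule, digested with trypsin and collagenase, and strained before 10x Genomics capture. With 1 library per group nothing was tested. All values are descriptions of these libraries, and every interval covers counting error only. The authors' UMI counts come from the 3′ ends of transcripts and were not scaled to gene length, so each level (CPM, UMIs of a gene per 1000000 UMIs) is compared between groups of barcodes and not between genes.

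Spermatids are the haploid cells that follow the meiotic divisions. They pack their nucleus, grow a flagellum from a centriole and shed most of their cytoplasm. The flagellum is built on an axoneme of microtubule doublets carrying dynein motors, radial spokes and a central pair, with tektins and CFAP proteins lining the doublets. Much of the RNA for these structures is known, in other vertebrates, to be made already in meiotic prophase, by spermatocytes whose chromosomes are still paired by the synaptonemal complex. Sperm-egg fusion in vertebrates needs sperm membrane proteins that include Izumo1, Spaca6, Tmem81, Dcst1 and Dcst2.

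In the same window, the largest sum placed 2419 barcodes as replicating, 735 as dividing, 362 as early meiotic and 836 as later spermatocytes, and 357 had no class. A further 2077 barcodes of the library had the tail sum as their largest but held under 3000 UMIs, and 125 held over 20000. Median depth was 5689 UMIs in the tail-gene-high barcodes, 5424 in the later spermatocytes and 5938 in the replicating barcodes. Thinned to 3000 UMIs each, these 3 classes had medians of 1723, 1779 and 1708 detected genes, so number of genes at equal depth lay close together. Mitochondrial genes took a median of 0.848% of UMIs in the tail-gene-high barcodes and 1.70% in the later spermatocytes. Simulated doublets marked 550 tail-gene-high barcodes (16.7%) and 12.6% of the later spermatocytes as resembling 2 cells. The share was 19.0% in dividing, 14.2% in replicating and 8.29% in early meiotic barcodes. Of the tail-gene-high barcodes, 14 shared their sequence with a barcode of the regressed library and 5 with one of the juvenile library. Over all 14800 barcodes of the differentiating library, 68 and 18 did so.

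The tail sum that chose these barcodes had a median of 28 UMIs and ran from 3 to 180. Its margin over the largest other sum was often small, with a median of 11 UMIs and a lower quartile of 5. The tail sum was at least 2 times each other sum in 1391 barcodes (42.2%), at least 3 times in 600 (18.2%) and at least 5 times in 160. The runner-up was the later spermatocyte sum in 2530 barcodes (76.8%). The later spermatocyte genes themselves stood at 2326 CPM in tail-gene-high barcodes and 2655 CPM in the later spermatocytes, and 11 tail-gene-high barcodes had no UMI of them. Those genes chose both groups, so these values only describe the choice. Outside the choosing genes, the 1073 barcodes whose tail sum led by under 1.5 times had 12217 CPM of 30 spermatocyte genes, against 14191 CPM in the later spermatocytes, and 4430 CPM of 16 spermatid markers, against 3554 CPM. For those barcodes both lists lay nearer to the later spermatocytes than to the barcodes with the largest margin, and the word spermatid in the label was not borne out.

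Genes that took no part in the choice changed steadily with the margin. The level of tmem81, a partner of Izumo1 and Spaca6 on fish and human sperm, was 220 CPM where the tail sum led by under 1.5 times. It was 717 CPM at 1.5 to 2 times, 1762 CPM at 2 to 3 times and 3783 CPM at 3 times or more. The level of cahz, a carbonic anhydrase that hydrates carbon dioxide, was 484, 1435, 3424 and 6957 CPM in the same order. The sum of 16 spermatid markers outside the choosing sums was 4430 CPM at the smallest margin and 8096 CPM at the largest. The sum of 30 spermatocyte genes outside them, which build or serve the synaptonemal complex and recombination, ran the other way, from 12217 to 6339 CPM. None of the intervals of these 4 margin groups overlapped for any of the 4 measures, but they leave out spread between barcodes. The groups were cut on the sums that chose the barcodes, with the later spermatocyte sum as runner-up in 76.8% of them. How far these trends follow from that cut was not tested.

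Groups on either side of the threshold differed as follows. The 581 barcodes whose tail sum led by 1 to 3 UMIs had 3979 CPM of the spermatid markers, 159 CPM of tmem81 and 363 CPM of cahz. The 564 barcodes whose tail sum, of at least 3 UMIs, missed the later spermatocyte sum by 0 to 3 UMIs had 3736 CPM, 92.2 CPM and 212 CPM. Only barcodes with the later spermatocyte sum as the largest other sum entered that group. The 581 could have any runner-up, so the groups were not cut alike. At the lower depth limit, the 221 barcodes just above 3000 UMIs (within 10% of it) had 1118 CPM of tmem81 and the 236 just below it had 1402 CPM. At the upper limit, tmem81 stood at 1141 CPM in the 39 barcodes just under 20000 UMIs and at 832 CPM in the 26 just over it.

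**Figure D1:**
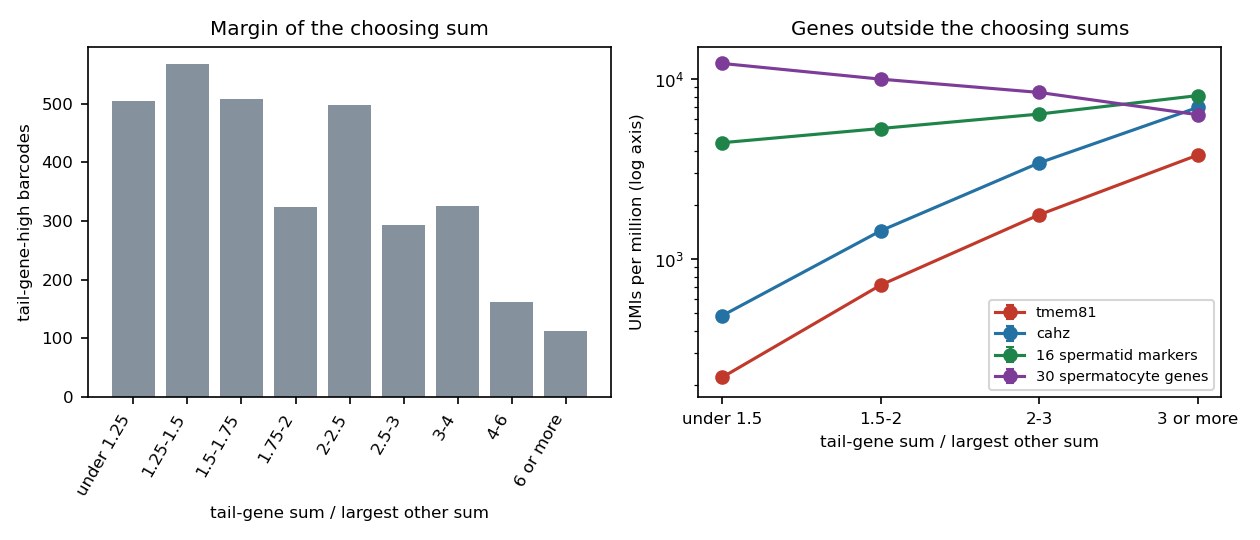
Left, number of tail-gene-high barcodes by the ratio of their tail sum to the largest other sum. Right, level in CPM (log axis, 95% Poisson intervals, narrower than the points) of tmem81, cahz, 16 spermatid markers and 30 spermatocyte genes in 4 ranges of that ratio; tmem81 goes from 220 to 3783 while the spermatocyte genes go from 12217 to 6339.

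The comparison with the later spermatocytes asked which RNAs outside the choosing sums go with a leading tail sum. One group was chosen by a leading tail sum and the other by a leading later spermatocyte sum. Other tail and spermatocyte genes can vary with those sums. How far their differences follow from the choice was not tested. A gene was called when the nearer end of the exact 95% interval of its CPM ratio lay past 2-fold, with at least 100 UMIs in both groups together. Of 9814 genes measured this way, 944 were called higher (9.62%) and 636 lower (6.48%) in the tail-gene-high barcodes. The median gene had a log2 ratio of −0.34, so a gene at the same share of total RNA in both groups lay above most others. Scaled to that median gene by median-of-ratios factors, 1322 genes were higher (13.5%) and 101 lower (1.03%). Many of the called genes carry no symbol, 308 of those higher and 95 of those lower. The counts for the lists below are to be read against those shares of all genes. The shares called higher were 14.3% in dynein assembly, 6.25% in centriole, 18.8% in kinesin and 12.5% in chromatin genes. Adenylate and creatine kinase genes had 12.5% called higher, and replication genes had 10% called lower. These shares rest on 1 to 3 genes each, too few to set those lists apart from all genes. They also varied with the setting: without marked doublets 7 of 17 replication genes were lower, against 13.1% of all genes.

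**Figure D2:**
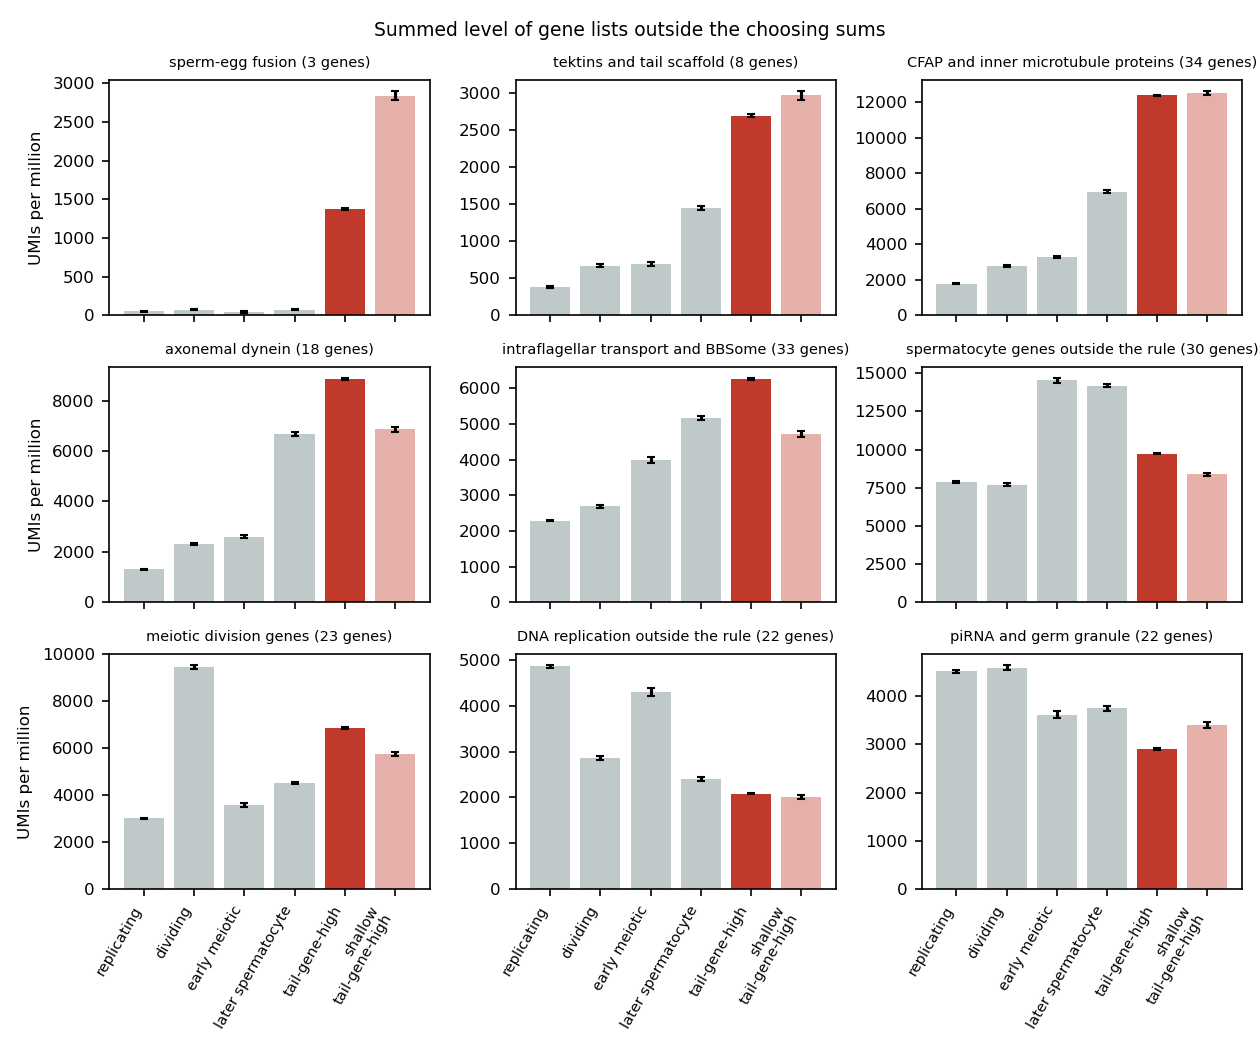
Summed level in CPM (bars, 95% Poisson intervals) of 9 gene lists, without the choosing genes, in 4 other classes of the window, the tail-gene-high barcodes and the shallower tail-gene-high barcodes under 3000 UMIs. Sperm-egg fusion genes stand at 1374 in tail-gene-high barcodes and 70.1 in later spermatocytes, and spermatocyte genes at 9745 and 14191.

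The fusion genes had the highest summed ratio of the 29 lists, 19.6 (17.7 to 21.7), but tmem81 alone gave 1316 of their 1374 CPM. Tmem81 stood at 1316 CPM against 67.9 CPM in later spermatocytes, a ratio of 19.4 (17.5 to 21.5). Spaca6 stood at 57.4 against 2.19 CPM, a ratio of 26.3 (14.99 to 51.0). The third listed fusion gene outside the choosing sums, bncr, is not among the sperm membrane proteins named above. It had no UMI, which allows a level of up to 0.135 CPM, counting 3 UMIs as the limit of a count of 0. After thinning every barcode to 3000 UMIs, tmem81 was found in 60.5% of tail-gene-high barcodes, 19.0% of later spermatocytes and 12.3% of replicating barcodes. It was found in 15.5% of dividing and 11.6% of early meiotic barcodes. Free RNA was not measured, so its part in the shares of these other classes was not tested. Spaca6 was found in 12.7% of tail-gene-high barcodes, 0.957% of later spermatocytes and 1.03% of replicating barcodes, and the intervals of the last 2 overlapped. Without thinning, tmem81 was found in 69.6% of tail-gene-high barcodes.

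Among the 16 spermatid markers found, 13 had enough UMIs, 6 were called higher and 0 lower, and their median log2 ratio was 1.04 against −0.34 for all genes. The 6 were spaca6, spag16 and spag6 (central pair proteins), spata18, spata6 and enkur. Spag16 stood at 93.6 against 10.4 CPM, spata18 at 122 against 12.7 CPM, spag6 at 379 against 56.1 CPM and enkur at 944 against 190.1 CPM. Others of the list differed little. Meig1, which mouse spermatids need to build the tail, stood at 1574 against 1289 CPM and spag17 at 169 against 184 CPM. Tekt2 and tekt3, tektins of the mammalian tail, were nearly silent: tekt2 had 1.67 CPM and tekt3 had 0.135 CPM, and tppp2 had no UMI.

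Calls among the tail genes were uneven. Of 34 CFAP and inner microtubule genes, 9 were called higher and 0 lower, with a median log2 ratio of 0.65. Among them were cfap161 (559 against 131 CPM), cfap20 (1321 against 353 CPM), cfap53 (765 against 206 CPM) and cfap126 (688 against 194 CPM), with cfap100, cfap58, mns1 and cfap99. Of 17 radial spoke, nexin-dynein regulatory and central pair genes, 5 were higher, among them rsph14 (926 against 315 CPM) and the regulatory complex gene drc3 (235 against 83.9 CPM). Of 5 measured tektin and tail scaffold genes, 2 were higher, including fsip1, a fibrous sheath interacting protein (150 against 49.7 CPM).

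Dynein arms and the transport machinery differed less. None of 18 axonemal dynein genes was called, although 15 had ratios above 1 and their median log2 ratio was 0.31. The inner arm light chain dnali1 came nearest, at 1089 against 547 CPM, and the outer arm heavy chain dnah8 stood at 2110 against 1775 CPM. Of 14 genes that assemble or dock dynein arms, 2 were called higher, ccdc151 (469 against 134 CPM), a docking protein, and pih1d3 (642 against 302 CPM), an assembly factor. None of 33 genes of intraflagellar transport and the BBSome was called, with a median log2 ratio of 0.23, and ift88 stood at 46.5 against 48.3 CPM. With median-of-ratios scaling 3 of 18 dynein and 3 of 33 transport genes were called higher, where 13.5% of all genes were. With the 2-times margin in both groups 3 of 16 and 1 of 33 were, against 11.6% of all genes. Of 32 centriole and basal body genes, cep63 and tctn2 were higher. The ciliary regulators rfx2 (224 against 218 CPM) and foxj1a (0.226 against 0.364 CPM) did not stand apart, and none of the 6 measured regulators was called.

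Motors and tubulin enzymes gave a few large differences. Of 16 kinesin genes, 3 were higher, kif2a (426 against 164 CPM), a microtubule depolymerase, kifap3a (89.8 against 31.9 CPM), a subunit of the kinesin of the growing cilium, and kif19 (533 against 247 CPM). Of 20 tubulin and tubulin modification genes, 4 were higher and 1 lower. The 4 all belong to glycylation or glutamylation of tubulin tails, ttll10 (67.5 against 5.65 CPM), ttll3 (20.5 against 6.37 CPM), ttll1 (144 against 42.8 CPM) and tpgs1 (73.2 against 30.05 CPM). The lower gene was tubg1, the gamma tubulin of centrosomes, at 39.2 against 89.8 CPM.

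**Figure D3:**
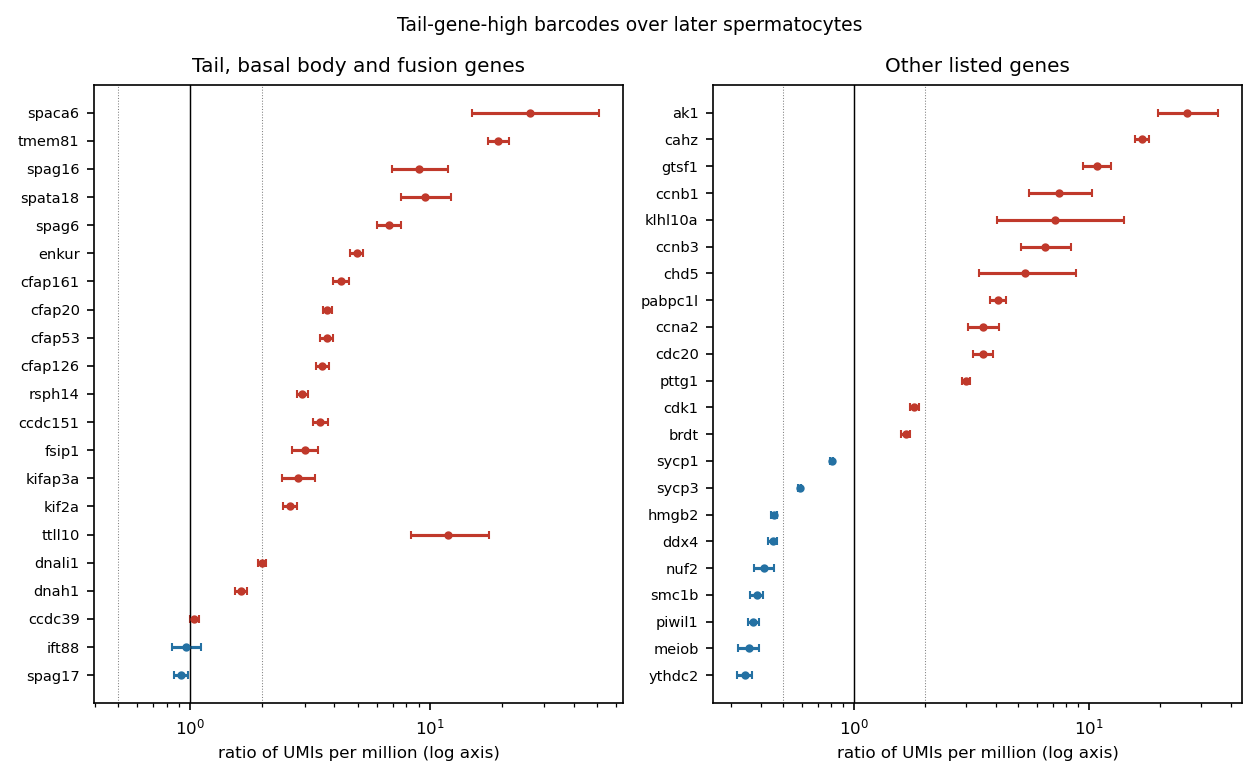
Ratio of CPM in tail-gene-high barcodes over later spermatocytes for 43 listed genes (points, exact 95% intervals, log axis; dotted lines at 2-fold). Spaca6 and ak1 lie near 26, tmem81 at 19.4 and cahz at 16.8, and meiob and ythdc2 below 0.5.

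Genes of cell division were among those called higher. Of 22 measured genes of the meiotic divisions, 7 were called higher and 1 lower, with a median log2 ratio of 0.43. Cyclin genes led, with ccnb1 at 61.2 against 8.19 CPM, ccnb3 at 82.8 against 12.7 CPM and ccna2 at 120.1 against 33.9 CPM. The anaphase genes cdc20 (295 against 83.4 CPM) and pttg1, the securin that holds back separase (1473 against 493 CPM), were higher too, as were nusap1 and the phosphatase gene cdc25b. Their kinase partner cdk1 stood at 739 against 411 CPM, short of the call. Nuf2, an outer kinetochore protein, was lower at 46.4 against 112 CPM. The mitotic kinase gene plk1, of the division sum, stood at 189 against 24.9 CPM, which is a description since it took part in the choice. In tail-gene-high barcodes the division sum had to stay under the tail sum (median 28 UMIs). In later spermatocytes it had to stay under the later spermatocyte sum (median 15 UMIs). The division sum stood at 1526 against 1063 CPM. The part of these unlike limits in the calls of other division genes was not tested.

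Spermatocyte genes outside the choosing sums were on the lower side, against barcodes that were themselves chosen by a leading sum of spermatocyte genes. Of 29 measured, 6 were called lower and 0 higher, with a median log2 ratio of −0.87. They were meiob (39.1 against 110 CPM), which binds single-stranded DNA in recombination, ythdc2 (80.8 against 236 CPM) and its partner meioc (103 against 229.8 CPM), and majin, smc1b and psmc3ip. The axial and transverse proteins of the synaptonemal complex fell short of the call. Sycp3 stood at 2187 against 3728 CPM, sycp2 at 697 against 1121 CPM and sycp1 at 3682 against 4588 CPM. Thinned to 3000 UMIs, sycp1 was found in 98.8% of the tail-gene-high barcodes and 99.5% of later spermatocytes. The count of lower genes was 12 of 29 with marked doublets left out, where 13.1% of all genes were lower, and 1 of 29 with median-of-ratios scaling, where 1.03% were.

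Germ granule and piRNA genes as a list lay where all genes did, with a median log2 ratio of −0.37. Of 17 measured, piwil1 (150 against 404 CPM), ddx4 (252 against 557 CPM) and tdrkh (17.2 against 46.6 CPM) were called lower. The gene called higher was gtsf1, a zinc finger partner of Piwi proteins, at 404 against 37.5 CPM, a ratio of 10.8 (9.37 to 12.4). Thinned, ddx4 was found in 45.5% of tail-gene-high barcodes, 75.2% of later spermatocytes and 93.3% of replicating barcodes. With median-of-ratios scaling ddx4 lost its call at a ratio of 0.573, and 1 of the 17 genes was lower. Replication genes outside the choosing sum gave 2 lower of 20, rfc5 and gins1, and none higher; their summed ratio of 0.870 lay at 1.104 under median-of-ratios scaling, on the other side of 1. Without marked doublets 7 of 17 were lower, against 13.1% of all genes.

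Of 16 genes of chromatin exchange, the chromodomain remodeller gene chd5, which mouse spermatids need for compaction, was higher at 19.4 against 3.64 CPM. The ubiquitin ligase gene rnf4 was higher at 428 against 164 CPM, and hmgb2, a high mobility group protein, was lower at 584 against 1274 CPM. Rnf8, which ubiquitinates histones in mouse spermatids, stood at 227 against 109 CPM without a call. Among 14 regulators of spermiogenesis, pabpc1l, a poly(A)-binding protein, was higher at 525 against 128 CPM, while tbpl1 (18.6 against 51.0 CPM) and celf1 (30.8 against 78.1 CPM) were lower. The bromodomain gene brdt stood at 745 against 449 CPM. Crema, a fish crem gene whose mammalian counterpart drives spermatid genes, had 1.44 CPM.

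Of 20 ubiquitin system genes, 5 were called higher and 0 lower. They were ubxn11 (257 against 57.9 CPM), fbxo36 (253 against 70.5 CPM), rnf19a (544 against 169.9 CPM), ube2d4 (742 against 323 CPM) and klhl10a (15.7 against 2.19 CPM), an ortholog of an adaptor that mouse spermatids require. The adenylate kinase gene ak1, which balances ATP, ADP and AMP, stood at 233 against 8.92 CPM, a ratio of 26.1 (19.7 to 35.3), and was the only 1 of 8 adenylate and creatine kinase genes called. None of 9 measured glycolysis genes was called. Of 7 signalling genes, the calcium-binding protein gene efcab1 was higher (441 against 168 CPM). Of 6 acrosome and head shape genes, tmf1 was lower (33.0 against 75.6 CPM).

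By the ends of their intervals, the highest named ratios outside the choosing sums belonged to has1, aadacl4, tm6sf1, tmdd1 and ak1. Has1, a hyaluronan synthase, stood at 104 against 2.55 CPM, and aadacl4, a serine hydrolase family gene, at 101 against 2.55 CPM. Nceh1, a neutral cholesterol ester hydrolase, stood at 538 against 23.3 CPM. C19h1orf94, tmem81, asb12, isg20l2, fbxo39, zgc:101744, tex36, cfap97d2 and ppp1r32 completed the highest 15, with ratios of 19.0 to 28.6. The lowest 10 were led by ccdc36, whose mouse counterpart IHO1 helps start meiotic DNA breaks, at 51.1 against 182 CPM. Mgat5, pknox1, fanci, si:ch211-227n13.3, cdipt, tanc1, ppfibp1a, ythdc2 and dnph1 followed, at 2.92-fold to 3.61-fold lower. Fanci serves DNA crosslink repair and cdipt makes phosphatidylinositol.

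Markers of other cell types were scarce. The summed Sertoli list of 14 genes stood at 6.68 CPM, 9 steroid genes at 2.89 CPM and 13 genes of undifferentiated spermatogonia at 6.68 CPM, with amh and nanos3 at 0. The erythroid list stood at 2535 CPM in tail-gene-high barcodes and 163 CPM in later spermatocytes, but cahz alone gave 2522 and 150 CPM. Of the red cell genes proper, slc4a1a and hemgn each had 0.226 CPM, and 94 of the 95 UMIs of alas2, the heme synthesis enzyme, lay in 2 barcodes. Cahz was found after thinning in 72.8% of tail-gene-high barcodes, 31.7% of later spermatocytes and 24.1% of replicating ones. The macrophage and lymphocyte list summed to 37.1 against 7.65 CPM, with lck (14.4 against 0.910 CPM) and c1qa (15.8 against 3.46 CPM) called higher, and csf1ra and zap70 at 0. No UMI of that list was found in 2704 tail-gene-high barcodes, and the highest count in 1 barcode was 68. The 2 barcodes with alas2 also held 95.8% of 3514 UMIs from 6 neighbouring features without symbols. One of these barcodes carried 3177 of them among its 5261 UMIs and met the rule with a tail sum of 3.

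The tail-gene-high barcodes were also grouped among themselves, on 2000 variable genes without the choosing, mitochondrial and ribosomal protein genes. This gave 9 clusters of 177 to 608 barcodes, which are described by number and given no cell type. The choosing genes took no part, but genes that vary with the tail sum, such as tmem81 and cahz, were not left out. The grouping is therefore not independent of that sum. Levels and leading genes by cluster come from the counts that made the clusters, so they are descriptions. The clusters differed in the share of barcodes whose tail sum was at least 2 times each other sum. That share was 9.09% in cluster 8, 15.7% in cluster 2, 19.9% in cluster 1, 28.4% in cluster 3, 47.5% in cluster 4, 83.5% in cluster 7 and 97.1% in cluster 5. Cluster 6 (38.9%) and cluster 9 (84.2%) stood apart in other ways.

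Cluster 8, with 220 barcodes, had the highest level of the spermatocyte list among the 9, at 15601 CPM. Sycp3 stood at 4580 CPM, meiob at 196 CPM and hmgb2 at 1904 CPM there, while tmem81 stood at 37.3 CPM and cdk1 at 273 CPM. Its leading genes included ccdc36 (292 against 32.2 CPM in the other tail-gene-high barcodes). Cluster 2, with 522 barcodes, was next, with sycp3 at 3416 CPM and tmem81 at 58.5 CPM. Its 5 leading features have no symbol and were each found in 1 to 3 of its barcodes. For each, 98.1% to 100% of the UMIs in the cluster lay in 1 barcode, so they do not describe the cluster as a whole.

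Clusters 1 and 3 had less of the spermatocyte list, 11243 and 9207 CPM, and a higher division sum, 1815 and 1987 CPM, than clusters 8 and 2. Cluster 1 held 608 barcodes, with sycp3 at 2249 CPM, cdk1 at 827 CPM and plk1 at 75.3 CPM, and rilpl2 and the small GTPase gene mras among its leading genes. In cluster 3 plk1 stood at 187 CPM, cdk1 at 1010 CPM and tmem81 at 394 CPM, and the transcription factor gene tal1 led (84.2 against 27.3 CPM). Cluster 4 had plk1 at 358 CPM and tmem81 at 1318 CPM, and its 4 leading features have no symbol. Cluster 7 had the highest plk1 level of the 9, 459 CPM, with tmem81 at 2623 CPM and the transcription factor gene klf11 (117 against 27.7 CPM) second among leading features that otherwise have no symbol.

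Cluster 5 held 376 barcodes and the fewest marked doublets (1.86%). Tmem81 stood at 4157 CPM there, cahz at 7480 CPM, spaca6 at 226 CPM, ak1 at 823 CPM and chd5 at 61.5 CPM, while sycp3 was at 1032 CPM. Ccnb1 peaked in it at 244 CPM, and cdo1, a cysteine dioxygenase, led (202 against 22.6 CPM), with lrrc18b and the calpain gene capn3b also among its 5 leading genes. The spermatid markers summed to 8617 CPM in cluster 5 and 2888 CPM in cluster 8. Lck, of the macrophage and lymphocyte list, also differed, at 48.3 CPM in cluster 5 and 1.24 CPM in cluster 8. Mitochondrial genes took a median of 0.423% of UMIs in cluster 5 and 1.92% in cluster 8.

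Doublet marks were concentrated in cluster 6, where 321 of 334 barcodes (96.1%) were marked and the median depth was 8060 UMIs. It combined hmgb2 at 1783 CPM and the choosing gene mcm7 at 67.5 CPM with tmem81 at 1057 CPM. The part of doublets in its levels was not tested. Leaving cluster 6 out, a choice made after seeing the data, left 946 genes higher than in later spermatocytes (10.1% of those measured). Those lower rose from 636 (6.48%) to 1253 (13.4%). Cluster 9 held 177 barcodes, of which 66 (37.3%) were marked, and had tmem81 at 4456 CPM with plk1 at 68.2 CPM. Its 5 leading features have no symbol; the first, LOC113746504, stood at 4867 against 16.9 CPM. Sun3, a nuclear envelope protein of mouse spermatids, stood at 130.5 CPM in it and 0.804 CPM in the other tail-gene-high barcodes.

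**Figure D4:**
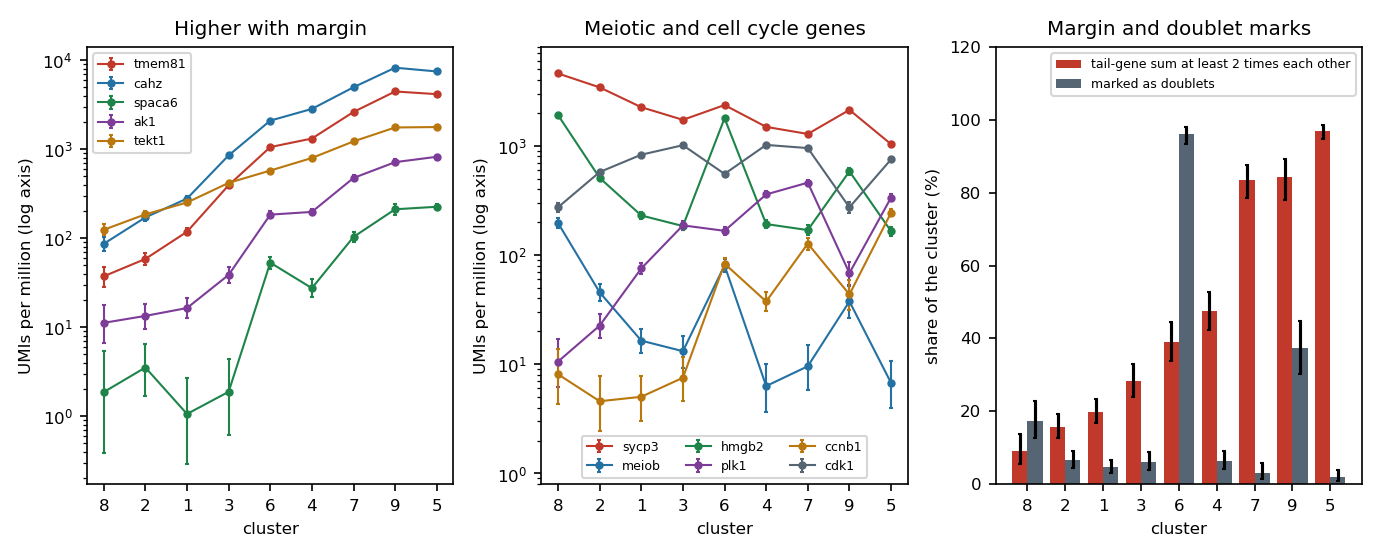
Level in CPM (log axes, 95% Poisson intervals) of 5 genes that follow the margin (left) and 6 meiotic or cell cycle genes (middle) in 9 clusters of tail-gene-high barcodes, ordered by the share with a tail sum at least 2 times each other sum. Tekt1 (left) belongs to the tail sum and plk1 (middle) to the division sum, so their levels only describe the choice. The right panel gives that share and the share marked as doublets with exact 95% intervals; tmem81 goes from 37.3 in cluster 8 to 4157 in cluster 5, and cluster 6 has 96.1% marked.

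Across single barcodes thinned to 3000 UMIs, genes were set beside the sums that chose the barcodes. Over the 3295 tail-gene-high barcodes, Pearson's r with the tail sum was 0.63 for tmem81, 0.63 for cahz, 0.35 for spaca6 and −0.46 for sycp3. With the later spermatocyte sum, r was −0.16 for tmem81, −0.10 for sycp3 and 0.21 for sycp1. These barcodes were chosen by those sums and share a library, and the counts share a fixed total, so r is given as a description. Levels varied less with depth than with the margin. Tmem81 stood at 1141 CPM in the 1293 barcodes under 5000 UMIs, at 1513 CPM in the 1487 from 5000 to under 10000 and at 1157 CPM in the 515 deeper ones.

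The second comparison set the tail-gene-high barcodes beside the 2077 barcodes under 3000 UMIs that met the same rule on sums, with a median depth of 1621 UMIs. Far fewer genes differed. Of 9583 measured, 34 were called higher (0.355%) and 233 lower (2.43%) in the deeper barcodes, and 147 of the lower ones have no symbol. The median log2 ratio over all genes was 0.05.

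The named genes with the highest ratios were taken by rank alone. Numa1, a spindle pole protein, stood at 345 against 123 CPM, nek2, a centrosomal kinase, at 977 against 421 CPM, and tacc3, which stabilises spindle microtubules, at 465 against 206 CPM. Prc1, which bundles midzone microtubules, stood at 255 against 108 CPM, and cdca3 at 135 against 52.7 CPM. The histone chaperone gene asf1ba (211 against 81.2 CPM), the splicing kinase gene srpk1 (788 against 324 CPM) and gcna, a germ cell nuclear protein (144 against 59.0 CPM), were higher too, with dcaf12, calm3, ube2g1, eif4a2 and kpna2. None of 22 genes of the meiotic division list was called in either direction, and cdk1 stood at 739 against 369 CPM. That count varied with the setting. With the 2-times margin in both groups 3 of 22 were called higher, where 1.69% of all genes were. Without marked doublets 2 of 22 were, where 0.638% of all genes were. Nek12 and fam149b1 ranked next among named genes and missed the call.

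RNAs lower in the deeper barcodes, and so more abundant in the shallow ones, were led by sun3 at 6.73 against 54.4 CPM, 8.09-fold lower (6.50 to 10.1). Only 83 of the deeper barcodes held sun3, and 132 of its 149 UMIs there lay in cluster 9. In that cluster it stood at 130.5 CPM, above its level in the shallow barcodes. Cdc42se1, a small effector of Cdc42, stood at 58.1 against 382 CPM, klhl10a at 15.7 against 92.1 CPM and pld6, a mitochondrial enzyme of piRNA production, at 26.5 against 129 CPM. The mitochondrial protein gene chchd10 stood at 294 against 1096 CPM, with rpl22l1, smpx, ubl3, cfap97d2 and si:ch211-15d5.11 also among the lowest 10. Tmem81 was called lower at 1316 against 2721 CPM, cahz at 2522 against 5133 CPM and gtsf1 at 404 against 1102 CPM. Spaca6 stood at 57.4 against 122 CPM and ak1 at 233 against 485 CPM, both short of the call. With the tail sum at least 2 times each other sum in both groups, the calls of tmem81, cahz and gtsf1 were lost, at ratios of 0.677, 0.680 and 0.541. Without marked doublets those of tmem81 and cahz were lost too, at 0.508 and 0.512, and without cluster 6 at 0.498 and 0.504.

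Tail gene lists shifted by unlike amounts between the depths. None of 34 CFAP genes, 18 axonemal dynein genes or 17 radial spoke genes was called in either direction, and their summed ratios were 0.991, 1.29 and 0.999. Ratios lay above 1 for 21 CFAP, all 18 dynein and 10 radial spoke genes. Intraflagellar transport and BBSome genes had a summed ratio of 1.33, with 30 of 33 above 1. Centriole and basal body genes had 1.31, with 27 of 32 above 1. The 29 spermatocyte genes gave no call and a summed ratio of 1.16. Depth itself separated these groups, so what follows from depth and what from cell state cannot be told apart. The minimum of 3 tail UMIs also asks for a larger share of the UMIs of a shallow barcode. The tail sum stood at 4855 CPM in the deeper and 5752 CPM in the shallow barcodes. The part of that minimum in the lower calls of tmem81, cahz and gtsf1 was not tested.

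**Figure D5:**
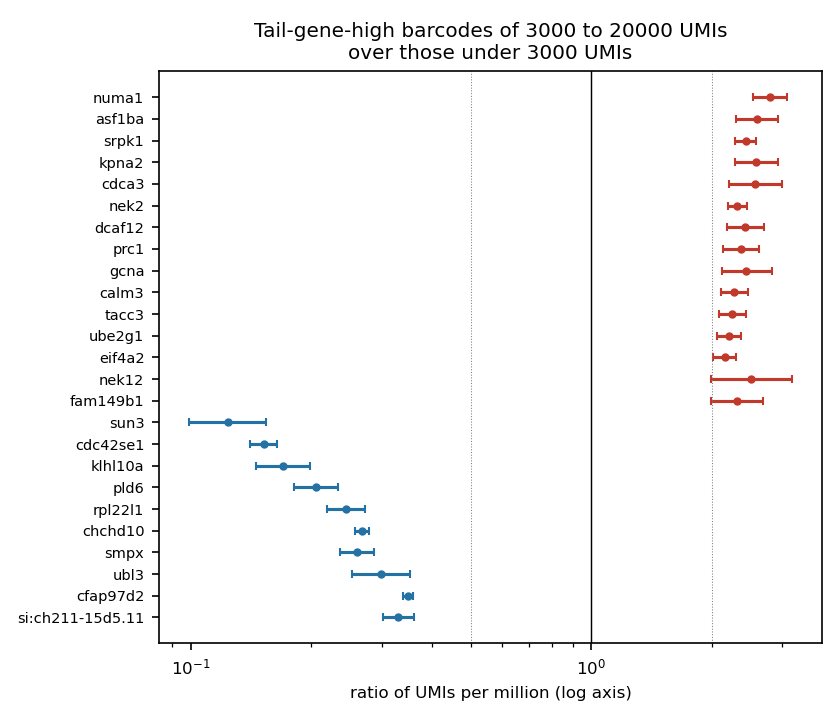
Ratio of CPM in tail-gene-high barcodes of 3000 to 20000 UMIs over those under 3000 UMIs for the 25 named genes with the highest and lowest ratios (points, exact 95% intervals, log axis; dotted lines at 2-fold). Numa1 lies at 2.80 and sun3 at 0.124, and the intervals of nek12 and fam149b1 reach 2.

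The same rule found few barcodes in the other libraries. It took 46 of 17828 in the regressed testis (0.258%, exact 95% interval 0.189% to 0.344%) and 6 of 4742 in the juvenile testis (0.127%, 0.0464% to 0.275%). Over whole libraries, the tail sum stood at 1824 CPM in the differentiating, 233 CPM in the regressed and 155 CPM in the juvenile testis. The 16 spermatid markers stood at 1108 CPM in the 46 regressed barcodes, against 5745 CPM in the tail-gene-high barcodes of the differentiating testis. In the 6 juvenile barcodes they stood at 4431 CPM (3886 to 5031).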

How the data were processed

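The authors deposited matrices of raw UMI counts, made with cellranger 5.0.0 per the file headers; the submitters' processing notes name Cell Ranger 3.1.0 and STAR. Genome build and annotation are not given in the sources used here. Depth was 102809626 UMIs in the adult differentiating, 293009193 in the regressed and 24826985 in the juvenile library, with 500 or more UMIs in each barcode. Of 15972 LOC features, 6125 received a symbol from RefSeq's gene table (L_crocea_2.0), which gave names and nothing else.

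Members were chosen from counts of the barcodes described, and the members and the 29 gene lists were chosen with earlier results of these data known. Of 684 listed genes, 509 were found. Raw counts were summed over barcodes and divided by summed UMIs. Levels have exact Poisson, ratios exact conditional binomial and shares Clopper-Pearson 95% intervals (scipy 1.17.1). Named genes were those of the lists, the 15 highest and 10 lowest ratios (at least 50 CPM in the higher group) and 5 leading genes per cluster. Thinning drew UMIs without replacement. Doublets were the 1752 highest scores against 2 simulated doublets per barcode and were kept in the main values. Their number was set by an assumed rate of 0.8% per 1000 barcodes. Clusters came from 20 components, 20 neighbours and Leiden resolution 0.5 (leidenalg 0.10.2). Calls and intervals were tested on counts simulated with counting error only, which leaves out spread between barcodes. Kpna2 shares its symbol between features, so its counts are uncertain. Some genes that met these rules are not reported here.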

Additional observations from a re-analysis of the deposited data

How the results depend on the processing

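No paired analysis was possible because each group has 1 library and the result comes from no test. The number of tail-gene-high barcodes fell from 3295 to 1391 when the tail sum had to be at least 2 times each other sum and to 2002 within 5000 to 20000 UMIs. It was 3288 with a tail sum of at least 5, 2745 without marked doublets, 3033 without the fusion genes and unchanged with at most 20% mitochondrial UMIs. Genes higher than in later spermatocytes numbered between 651 and 1322 over all settings, within 1.5 times of 944. Their share of measured genes ran from 5.23% without a filter on low counts to 13.5% with median-of-ratios scaling, against 9.62%. Genes lower than in later spermatocytes were 636 in the report, 6.48% of those measured. They numbered 1061 (15.7%) with the 2-times margin, 1176 (13.1%) without marked doublets, 101 (1.03%) with median-of-ratios scaling and 283 (3.55%) with thinned barcodes. Against the shallow barcodes, the 34 higher genes (0.355%) became 122 (1.69%) with the 2-times margin and 56 (0.638%) without doublets. The 233 lower (2.43%) became 393 (4.48%) without doublets. Without a filter on low counts they became 432, a smaller share (2.08%) of more measured genes. A further 2 settings were chosen after seeing the data. Without cluster 6, genes lower than in later spermatocytes numbered 1253 (13.4%). Against the shallow barcodes 52 were then higher (0.576%) and 361 lower (4%). Without the 2 barcodes rich in neighbouring features the 4 counts were 939 (9.58%), 632 (6.45%), 30 (0.313%) and 231 (2.41%). The margin rule left 82 later spermatocytes. Of 536 ratios of lists and genes over these settings, none that was called changed direction, and 198 moved outside their counting interval. The causes were not tested. Depth limits genes such as chd5, with 19.4 CPM, more than tmem81.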
